A study of Mus musculus with 9 samples.

Results

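Gene expression in the squamocolumnar junction of the mouse stomach was compared with that in the forestomach that borders it. All probe sets that carry 1 gene symbol entered the comparison, 34945 of the 45101 on the array. Of these, 24870 passed a filter on dim signals and stood for 13637 genes. The 3 junction arrays and the 3 forestomach arrays were compared, and the 3 arrays of the third zone, the corpus, entered the fit and are given beside the results. Stripes of 600 to 800 µm were cut from all 3 zones of 9 female C57Bl/6 mice aged 3 months, and each array held the pooled RNA of 3 mice. Series 1, 2 and 3 are separate pools, and arrays of 1 series come from the same animals. No genotype other than the inbred strain and no treatment is named for any group. The stripes lay side by side, so the forestomach stripe is the tissue next to the junction and not the whole of the forestomach.

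The rodent stomach has a proximal part, the forestomach, that is lined by a keratinising stratified squamous epithelium like that of skin and esophagus. Its distal part carries gastric glands, with parietal cells that secrete acid, chief cells that secrete pepsinogen, mucous cells, endocrine cells and chemosensory tuft cells. Both epithelia meet without a gap at the squamocolumnar junction, the place in the mouse that is set beside the human gastro-esophageal junction. In a squamous epithelium, basal cells with keratins Krt5 and Krt14 divide, suprabasal cells switch to other keratins, and the outermost cells build a cornified envelope, release barrier lipids and are shed by proteases.

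Values are MAS5 signals, an arbitrary linear unit in which every array has the same trimmed mean. Array medians ran from 47.9 to 57.1, and with 3 arrays a zone the precision is limited by their number. Across genes, which are not independent replicates, forestomach and junction arrays correlated at r = 0.837 to 0.887, and arrays within these zones at 0.975 to 0.982. For Gapdh, the 3′ control probe set over the 5′ one, a readout of RNA integrity, gave 0.789 to 0.926 in the forestomach and 0.754 to 0.762 in the junction. The same ratio for beta-actin was 1.575 to 1.735 and 1.497 to 1.567, so the zones did not overlap in either ratio. The part of RNA integrity in the differences was not tested. Squamous markers were bright on the forestomach arrays, with Krt5 at 4727 to 5841 and loricrin (Lor) at 10924 to 11834. Neither was shown to differ in the junction, so they do not tell these zones apart. The forestomach arrays also held mucous cell signal. It summed to 1987 to 33917 over 22 genes, against 124060 to 141712 in the junction. On the junction arrays both squamous and gland markers were bright, with Krt5 at 4705 to 6392 and the proton pump gene Atp4a at 9754 to 11000. The labels call the samples epithelium, yet the smooth muscle gene Actg2 read 8325 to 10303 in the forestomach and 2538 to 3968 in the junction, so the stripes held smooth muscle RNA. In bulk tissue, fewer cells of a type and less RNA per cell cannot be told apart.

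The junction differed from the forestomach in 6079 of the 13637 genes (44.6%), 2927 higher in the junction (21.5%) and 3152 lower (23.1%). Differences are given as log2 of the signal plus 9.8, junction minus forestomach, and a gene was called at an adjusted p under 0.05. Forestomach and junction arrays did not overlap in 7612 genes (55.8%), and 7071 genes had an unadjusted p under 0.05. A difference of at least 2-fold was called in 1094 genes that were higher (8.02%) and 953 that were lower (6.99%). Among all probe sets, 9739 of 24870 were called (39.2%). Of the genes called, 437 were at least 4-fold higher in the junction and 61 at least 4-fold lower, and 179 were at least 10-fold higher against 0 that were 10-fold lower. That 0 holds for a pseudocount of 9.8: with a pseudocount of 1, Orm1 was 17.4-fold lower (log2 difference -4.12). The median over all genes tested was -0.04. Counts of called genes in the lists below are to be read against the 21.5% higher and 23.1% lower of all genes. All lists and members were chosen with earlier results of these data known, so the counts describe the lists and are no test.

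**Figure D1:**
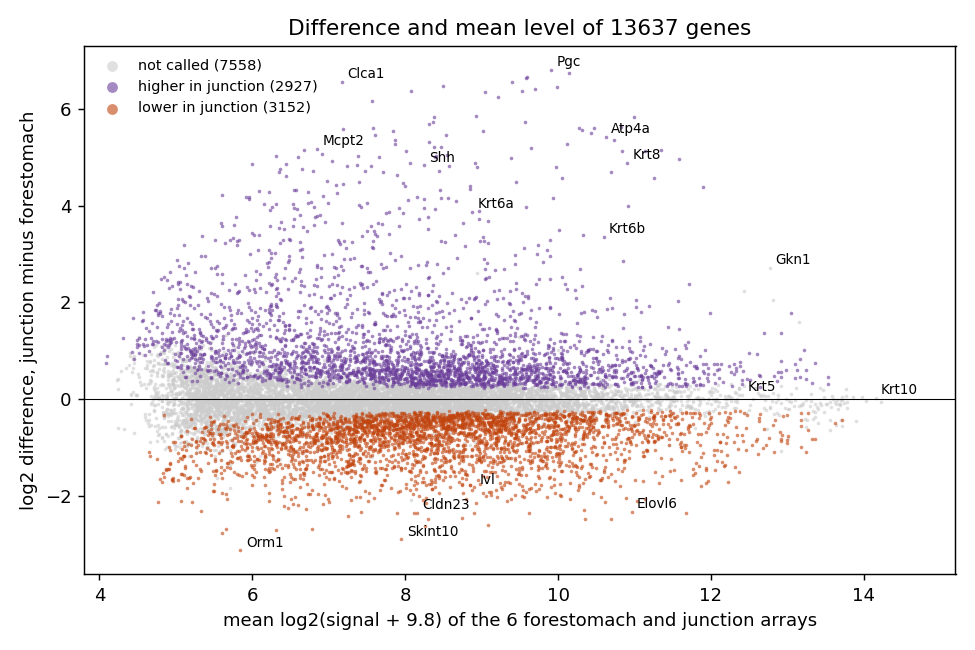
Each point is 1 of 13637 genes, with its mean log2 level over the 6 forestomach and junction arrays on the x axis and its log2 difference, junction minus forestomach, on the y axis. The 2927 genes called higher in the junction reach a difference of 6.81, and the 3152 called lower reach -3.13, for Orm1.

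The largest rises were in genes of glandular and mucosal secretion and of other kinds. Pepsinogen C (Pgc), the zymogen made by chief cells, read 19.7, 78.8 and 277.5 on forestomach arrays 1, 2 and 3 and 11532, 9555 and 9603 on junction arrays 1, 2 and 3. All 3 junction arrays lay far above the forestomach arrays, and the log2 difference was 6.81 ± 0.67 (SE, adjusted p = 7.54e-05). The gene of intrinsic factor (Cblif), the gastric carrier of cobalamin, read 1.8, 227.2 and 458.1 in the forestomach and 13020, 10263 and 12090 in the junction (log2 difference 6.75 ± 1.13, adjusted p = 0.00146). Forestomach array 1 was near the floor of the signal range for Cblif, and arrays 2 and 3 were not. Ghrelin (Ghrl), the hunger hormone of gastric endocrine cells, rose from 21.1, 107.4 and 187.3 to 8572, 6710 and 7837 (6.42 ± 0.56, adjusted p = 4.04e-05). The 15 largest rises also held the antimicrobial lipid-binding protein gene Bpifb1 (6.66), the disulfide isomerase gene Agr2 of mucous cells (6.57), the calcium-activated channel regulator gene Clca1 (6.57), and Smim38 (6.65). Transthyretin (Ttr, 6.48), apolipoprotein A-I (Apoa1, 6.45), the cargo receptor gene Tmed6 (6.38) and Clic6 (6.37) were among them, as were the disulfide isomerase gene Pdia2 (6.36), the gastric claudin gene Cldn18 (6.26), the hepcidin gene Hamp2 (6.17) and the sulfotransferase gene Sult1c2 (5.85). Without forestomach array 1, 12 of these 15 differences fell to between 4.99 and 6.00, and with array 1 as the lone forestomach array 14 of them lay between 6.87 and 9.98. A pseudocount of 1 moved 7 of them, to between 7.0 and 8.26, so the size and order of these rises depend on array 1 and on the pseudocount. Without forestomach array 3, 6 of them lay between 7.16 and 7.81, and with averaged probe sets Smim38 was at 4.61 and Agr2 at 5.96.

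The bases just before the start of Pgc are shown because it has the largest rise, with those of involucrin (Ivl), a cornified envelope gene that fell, beside them. Both stretches are the 150 bases upstream of the RefSeq start in GRCm38.p6, chr17:47726692-47726841 on the plus strand for Pgc and chr3:92573736-92573885 on the minus strand for Ivl, 5′ to 3′. Capitals mark matches to TATAAA, the core promoter box, and to TGANTCA, the site of AP-1 factors, searched on both strands.
Pgc: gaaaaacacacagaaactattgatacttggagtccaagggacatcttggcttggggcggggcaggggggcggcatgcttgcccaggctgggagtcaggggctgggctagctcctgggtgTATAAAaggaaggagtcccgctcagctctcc
Ivl: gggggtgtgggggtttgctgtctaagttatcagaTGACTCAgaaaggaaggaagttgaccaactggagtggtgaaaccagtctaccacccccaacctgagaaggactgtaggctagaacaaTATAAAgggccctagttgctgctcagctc
TATAAA began 31 bases before the start of Pgc and 29 before that of Ivl, and TGANTCA began 116 bases before that of Ivl. Of the 10935 genes tested that have a RefSeq window of 300 bases around the start, 8.1% held TATAAA, against 12.6% of the 844 genes called at least 2-fold higher in the junction and 11.6% of the 716 called at least 2-fold lower. For TGANTCA the shares were 5.41%, 8.29% and 7.54%. These are counts of letters in a window and no test was made of them.

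Parietal, chief and mucous cell genes rose with few exceptions. Of the 21 parietal cell genes tested, 19 rose and 0 fell, with a median log2 difference of 3.40 against -0.04 over all genes, and of the 12 chief cell genes 11 rose and 0 fell (median 3.92). Atp4a, the catalytic subunit of the acid pump, read 45.6, 376.1 and 644.6 in the forestomach and 10352, 9754 and 11000 in the junction (log2 difference 5.43 ± 0.75, adjusted p = 0.000535). Chief cells were also represented by pepsinogen 5 (Pga5, 4.82) and by the transcription factor gene Bhlha15 (3.51), which builds their secretory apparatus. Among 22 genes of surface and neck mucous cells 19 rose and 0 fell (median 5.08), a count that includes Gkn3, chosen after its values were seen. The filter level was passed in the junction but on no forestomach array by 4 parietal, 2 chief and 2 mucous cell genes. These could pass through the brighter zones alone, as could 4 each of the enteroendocrine, simple epithelium and epithelial defence genes. The same held for 3 of the mast cell genes and 3 of the neutrophil and eosinophil genes. For 1 more chief cell gene only corpus arrays were above that level. The surface mucin gene Muc5ac read 21.2, 472.2 and 565.3 in the forestomach and 10381, 8976 and 8721 in the junction (5.51 ± 0.94, adjusted p = 0.00164). Trefoil factor 2 (Tff2) of neck mucous cells read 62.5, 897.5 and 828.7 against 13642, 12442 and 14032 (5.14 ± 0.83, adjusted p = 0.00121).

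Surface mucous genes differed widely between forestomach arrays. Trefoil factor 1 (Tff1) read 470.1, 5625 and 6219 in the forestomach and 11922, 10314 and 14080 in the junction, and gastrokine 1 (Gkn1) read 260.4, 7130 and 10404 against 18010, 15933 and 19870. Forestomach and junction arrays were apart for both, but neither gene passed (log2 differences of 2.23 ± 0.85 and 2.72 ± 1.16, adjusted p = 0.0619 and 0.0881). Both passed without forestomach array 1, at 1.02 and 1.05, without array 3, at 2.87 and 3.69, and with array 1 alone, at 4.65 and 6.05. Tff1 passed also without array 2 (2.8), with the larger pseudocount (2.21) and with a stricter filter (2.23). Over the mucous cell genes that rose, the median forestomach signal was 0.467% of the junction mean on array 1, 5.68% on array 2 and 6.09% on array 3. The same medians were 1.95%, 3.63% and 6.87% for parietal and 1.97%, 3.90% and 9.38% for chief cell genes. Forestomach array 1 held the least signal of these 3 lists, whereas the 10 enteroendocrine genes that rose had medians of 32.9%, 17.7% and 11.3%. Without it the differences of Atp4a, Muc5ac and Tff2 were 4.37, 4.15 and 3.94, and with it alone they were 7.55, 8.24 and 7.53. Bhlha15 moved to 4.19 and 2.71 with the smaller and larger pseudocount and to 2.21 when its probe sets were averaged.

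Many digestive enzyme genes that are best known from the pancreas rose. Their list shares Clps, Pnliprp1, Rnase1 and Cpb1 with the chief cell list, so the counts of both overlap. Of 14 pancreatic acinar genes tested 10 rose and 0 fell (median 1.95). Of the 14, 5 were above the filter level in the junction but on no forestomach array, so their direction was set by the filter. For 1 more, only corpus arrays were above that level. Phospholipase A2 of group 1B (Pla2g1b) and colipase (Clps) were bright in the junction, at 16430 to 17914 and 15864 to 19177, and read 48.4, 930.6 and 3042 and 80.6, 1448 and 4432 on the forestomach arrays. Their log2 differences were 4.96 ± 1.17 and 4.39 ± 1.15 (adjusted p = 0.00841 and 0.0141). Both calls were lost without series 2 (adjusted p = 0.0686 and 0.0845), and the differences were 3.34 and 2.78 without forestomach array 1, 6.19 and 5.59 without array 3, and 8.2 and 7.6 with array 1 alone. The elastase gene Cela1 read 50.8, 108.1 and 130 in the forestomach and 2034, 1902 and 2380 in the junction (4.4 ± 0.28, adjusted p = 7.77e-06), and 654.0 to 897.3 in the corpus. With forestomach array 1 as the lone forestomach array Cela1 was at 5.12. The lipase-related genes Pnliprp2 and Pnliprp1 rose from 2.6 to 34.3 up to 1176 to 1659 (5.61 ± 0.42) and from 4.8 to 28.1 up to 251.9 to 633.9 (4.32 ± 0.40). Both depend on the pseudocount, at 6.43 and 5.24 with the smaller and 4.75 and 3.36 with the larger. Some pancreatic genes were dim in both zones, among them the protease gene Ctrc at 25.7 to 40.5 in the forestomach and 27.4 to 31.0 in the junction, and carboxypeptidase B1 (Cpb1) at 2.5 to 22.3 in both zones.

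Most enteroendocrine and tuft cell genes that were tested rose. Of 16 enteroendocrine genes 10 rose and 1 fell (median 1.19). Somatostatin (Sst) of D cells read 30.6, 36.6 and 76.0 in the forestomach and 2378, 1761 and 1933 in the junction (log2 difference 5.21 ± 0.26, adjusted p = 1.94e-06), and chromogranin A (Chga), a protein of endocrine granules, 89.3 to 122.0 against 981.2 to 1306 (3.26 ± 0.14, adjusted p = 1.21e-06). Secretogranin II (Scg2), a granule protein of neurons and endocrine cells, fell instead, from 271.2 to 356.9 down to 111.4 to 161.3 (-1.16 ± 0.15). Tuft cell genes rose in 9 of 13 and fell in 1 (median 1.83), and 2 of the 13 had no forestomach array above the filter level. The actin-bundling gene Avil read 49.6, 122.3 and 80.6 in the forestomach and 1618, 1523 and 1590 in the junction (4.15 ± 0.24, adjusted p = 4.41e-06). Dclk1, a kinase that marks tuft cells, read 30.6, 48.1 and 60.8 against 343.3, 383.8 and 360.2 (2.76 ± 0.20, adjusted p = 1.40e-05), and its corpus signal of 133.5 to 181.1 lay below all junction arrays. Leukotriene C4 synthase (Ltc4s), which makes a tuft cell mediator, stood at 198.6 to 236.4 in the junction, 46.4 to 60.1 in the forestomach and 107.8 to 146.1 in the corpus. The tuft cell factor gene Pou2f3, which is also made in squamous epithelium, was the member that fell (-0.32 ± 0.11, adjusted p = 0.0446), a call that was lost in most alternatives, with an adjusted p of 0.529 at the highest. Dclk1 was at 1.65 when its probe sets were averaged, and Avil at 4.74 with forestomach array 1 alone.

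**Figure D2:**
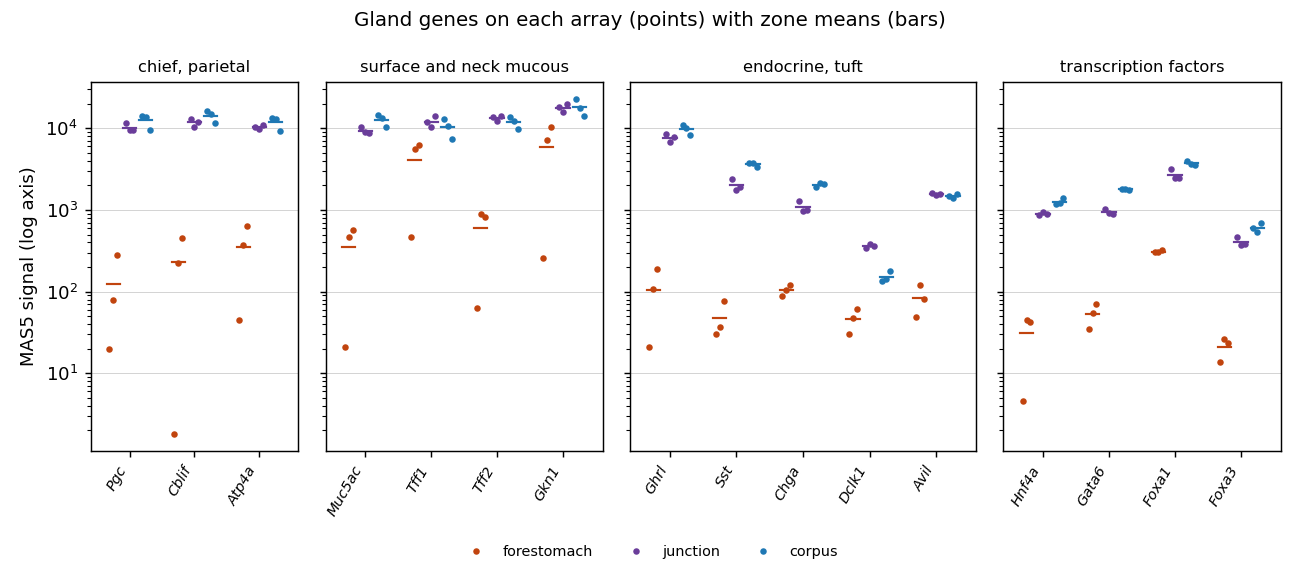
Signal of gland genes on each of the 9 arrays on a log axis, with 1 point per array, grouped by zone, and a bar at each zone's arithmetic mean of 3 arrays. The junction arrays overlap the corpus arrays for Pgc and Atp4a, and the forestomach arrays spread widely, as for Gkn1 at 260.4 to 10404.

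Genes of simple, single-layered epithelium were higher in the junction. Of 22 such genes 21 rose and 0 fell (median log2 difference 3.41), a count that includes Cftr, chosen after its values were seen. Keratin 8 (Krt8) read 89.3, 681.6 and 625.0 in the forestomach and 10923, 9935 and 10405 in the junction (4.89 ± 0.63, adjusted p = 0.000371), and was at 3.98 without forestomach array 1 and 6.72 with that array alone. Prominin 1 (Prom1), a membrane protein of apical protrusions, rose from 65.7, 133.3 and 146.6 to 3960, 3499 and 3806 (4.98 ± 0.24, adjusted p = 1.69e-06). Gastric and endodermal transcription factors rose in 12 of 18 and fell in 3 (median 2.04), and 2 of the 18 had no forestomach array above the filter level. Gata6, Gata4 and Gata5, zinc finger factors of endoderm, had differences of 3.96, 2.72 and 2.93, and Foxa1, a pioneer factor of gut epithelium, rose from 303.6 to 319.8 up to 2479 to 3160 (3.08 ± 0.12, adjusted p = 6.55e-07). Gata6 was at 3.15 when its probe sets were averaged, and Prom1 at 5.64 with forestomach array 1 alone. The hepatocyte nuclear factor gene Hnf4a read 4.6, 45.3 and 42.8 in the forestomach and 867.3, 938.0 and 882.9 in the junction (4.71 ± 0.44, adjusted p = 6.22e-05). It was at 3.17 when its probe sets were averaged and at 4.07 without forestomach array 1. Barx1, a homeobox gene of the stomach mesenchyme, fell from 599.6 to 702.8 down to 207.1 to 326.8 (-1.25 ± 0.30, adjusted p = 0.00879) and did not pass without series 1 (adjusted p = 0.0789) or with forestomach array 1 alone (0.079). Sox2, which marks foregut progenitors, was not shown to differ, at 1368, 1488 and 1447 in the forestomach and 961.7, 1049 and 1403 in the junction (-0.35 ± 0.18, adjusted p = 0.141). The arrays overlapped, and without junction array 3 it was called lower (-0.51, adjusted p = 0.0413).

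Genes tied to stem cells or to the junction itself rose in 18 of 31 and fell in 7 (median 0.96), and 8 of the 31 had no forestomach array above the filter level, which set their direction. Cftr, a member of this list, was chosen after its values were seen, so the counts describe the list and are no test. Many of the rises are counted in other lists too. Bhlha15, Cckbr, Aqp5 and Dclk1 are on the chief, parietal, mucous and tuft cell lists, and Krt7, Prom1, Wfdc2 and Cftr on the simple epithelium list. Krt17, Itga2 and Lgr5 are on the keratin, basal layer and Wnt lists. The falls of Hopx, Axin2 and Lrig1 are likewise shared with other lists. Lgr5, a Wnt target and stem cell marker of the gut, read 4.9, 44.6 and 38 in the forestomach and 171.4, 184.0 and 133.5 in the junction (2.35 ± 0.43, adjusted p = 0.00235), against 180.5 to 215.1 in the corpus, and the difference was 1.75 with the larger pseudocount and 3.54 with forestomach array 1 alone. Krt7, a keratin of transitional epithelia, rose from 602.7 to 685.2 up to 1035 to 1625 (0.96 ± 0.17, adjusted p = 0.00208, but 0.0502 with forestomach array 1 alone) and was lower in the corpus, at 213.1 to 282.1. The hyaluronan receptor gene Cd44 fell from 3212 to 3524 down to 1819 to 2692 (-0.52 ± 0.14, adjusted p = 0.0169). It lost the call in 4 of the alternatives, with adjusted p values up to 0.159. Cell cycle genes rose in 18 of 45 and fell in 1 (median 0.62), so 42.2% were called, against 44.6% of all genes tested. Of the 45, 2 had no forestomach array above the filter level. The proliferation marker Mki67 read 91.0, 176.2 and 120.1 in the forestomach and 250.7, 328.9 and 203.7 in the junction (0.98 ± 0.24, adjusted p = 0.00922), a call lost without series 1 (adjusted p = 0.089). The centromere gene Cenpa rose from 32.4, 52.2 and 40.6 to 107.5, 127.7 and 109.3 (1.29 ± 0.16, adjusted p = 0.000276).

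**Figure D3:**
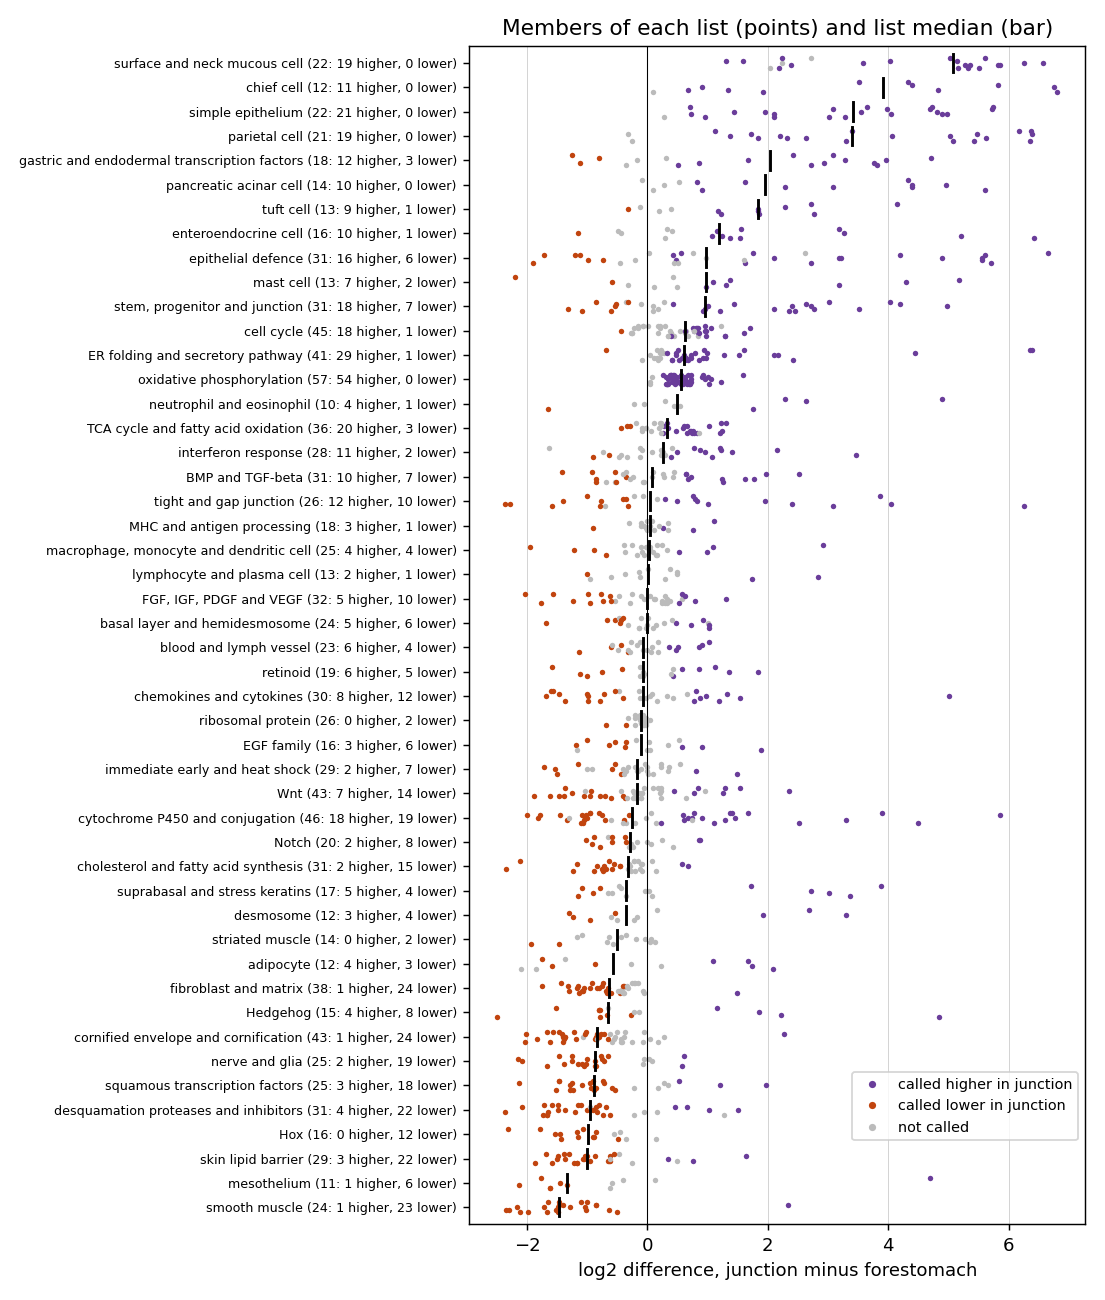
Each point is a gene of the named list, placed by its log2 difference, junction minus forestomach, with genes called higher, called lower and not called in separate colours and the list median as a black bar. Lists of gland cells have medians of up to 5.08 at the top, and smooth muscle has the lowest, at -1.46.

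Within the squamous genes, 4 keratins of stressed or fast-growing epithelium rose in the junction. Keratin 6a (Krt6a) read 70.5, 139.6 and 141.1 in the forestomach, 1376, 2237 and 1855 in the junction and 53.6 to 100 in the corpus. Its junction arrays lay above those of both other zones, with a log2 difference from the forestomach of 3.88 ± 0.31 (adjusted p = 2.49e-05). Keratin 6b (Krt6b) read 283.6, 762.5 and 489.7 in the forestomach and 4302, 4614 and 6081 in the junction (3.36 ± 0.58, adjusted p = 0.00168), and 4.4 to 60 in the corpus. Keratin 16 (Krt16), the partner of keratin 6, rose from 45.0, 130.1 and 53.0 to 510.7, 798.0 and 596.9 (3.02 ± 0.38, adjusted p = 0.000302). Keratin 17 (Krt17) rose from 92.9, 214.0 and 128.7 to 715.6, 1168 and 1056 (2.72 ± 0.41, adjusted p = 0.000842). Probe sets of Krt6a and Krt6b can bind the RNA of both near-identical genes, so their split is uncertain. With forestomach array 1 alone their differences were 4.48 and 4.08. Keratin 79 (Krt79), of hair follicle ducts, rose as well (1.72 ± 0.10).

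Krt5, Krt14, Krt1 and Krt10 were bright in both zones and were not shown to differ. Krt5 read 4727, 5841 and 5266 in the forestomach and 4705, 5861 and 6392 in the junction (log2 difference 0.09 ± 0.30, adjusted p = 0.825), and Krt14 5571, 6769 and 5719 against 5109, 5866 and 7174 (0.00 ± 0.25, adjusted p = 0.997). The suprabasal keratins Krt1 and Krt10 had differences of 0.07 ± 0.28 and 0.03 ± 0.32. Krt10 was among the brightest genes, at 17928 to 18211 and 17210 to 20618, where a probe set can saturate. In the esophageal type pair, Krt4 read 14923, 15408 and 15119 against 7856, 10435 and 10897 and Krt13 14666, 16100 and 15591 against 8974, 12697 and 12969. All junction arrays of this pair lay below the forestomach arrays, yet neither passed (-0.65 ± 0.34 and -0.44 ± 0.32, adjusted p = 0.152 and 0.293). Krt4 was called lower when the 6 arrays were fitted alone (adjusted p = 0.0111) or without corpus array 3 (0.0182), and Krt13 with averaged probe sets (-0.75, adjusted p = 0.00929). The suprabasal keratin genes Krt76 (-0.90), Krt78 (-1.08) and Krt80 (-1.16) fell, as did Krt23 (-0.78). Of 17 suprabasal and stress keratins in all, 5 rose and 4 fell (median -0.35).

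The basal layer list had no common direction. Of its 24 genes 5 rose, 6 fell and 13 did not pass, with a median of -0.01, and 2 of the falls were called without series 1. The share called was 45.8%, against 44.6% of all genes tested. Integrin alpha 6 (Itga6), the laminin receptor of hemidesmosomes, rose from 923.4, 976.2 and 900.6 to 1980, 1688 and 2052 (1.02 ± 0.10, adjusted p = 8.40e-05), and laminin beta 3 (Lamb3) from 222.2 to 280.9 up to 461.1 to 569.3 (1.03 ± 0.12). Both were also high in the corpus, at 1713 to 1919 and 461.4 to 512.8. The caveolin gene Cav1, which stroma and vessels share, fell from 3634 to 4173 down to 1091 to 1330 (-1.69 ± 0.13). Trp63, the p63 gene that squamous basal cells require, read 1605, 1736 and 1613 in the forestomach and 886.9, 1154 and 1419 in the junction. Its fall of -0.54 ± 0.18 (adjusted p = 0.0413) was lost in 13 alternatives, with adjusted p values up to 0.252.

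Among genes of late squamous differentiation falls outnumbered rises. Of 43 genes of the cornified envelope and cornification 24 fell and 1 rose (median -0.83), and the summed signal of the list was 282069 to 296522 in the forestomach and 148396, 189472 and 212310 on junction arrays 1, 2 and 3. Involucrin (Ivl), an early scaffold of the envelope, read 958.1, 970.4 and 768.2 in the forestomach and 229.5, 270.4 and 233.4 in the junction (log2 difference -1.83 ± 0.22, adjusted p = 0.000213). Transglutaminase 3 (Tgm3), which cross-links the envelope, fell from 1287, 1716 and 1419 to 261.8, 473.4 and 366.8 (-2.01 ± 0.27, adjusted p = 0.000426). The late cornified envelope gene Lce1m, whose family members are alike in sequence, read 4050, 3977 and 3532 against 692.4, 1183 and 975.0 (-2.04 ± 0.20, adjusted p = 7.01e-05). Loricrin, the main protein of the envelope, was not shown to differ, at 11834, 11691 and 10924 against 8082, 10003 and 10917 (-0.26 ± 0.24, adjusted p = 0.418). Sprr2f, of the small proline-rich family, was the member that rose, from 14.2, 59.7 and 29.9 to 211.6, 191.7 and 155.3 (2.27 ± 0.33, and 3.02 with forestomach array 1 alone), and it read 238.0 to 282.5 in the corpus. Its family members share sequence, so its level is uncertain. Without series 2 the falls numbered 15, and with forestomach arrays 2 and 3 left out they numbered 8.

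The proteases and lipids that finish the cornified layer followed. Of 31 desquamation proteases and inhibitors 22 fell and 4 rose (median -0.95), and of 29 genes of the skin lipid barrier 22 fell and 3 rose (median -1.0). Kallikrein 6 (Klk6) read 539.3, 555.6 and 491.6 in the forestomach and 62.9, 117.3 and 115.0 in the junction (-2.36 ± 0.26, adjusted p = 0.000161), and kallikrein 8 (Klk8) 4425, 4529 and 4845 against 756.5, 1201 and 1397 (-2.08 ± 0.23). The rises were in the inhibitor and protease genes Spint2 (1.03) and St14 (0.65), which simple epithelia also use, and included the cystatin gene Stfa3 (1.51), at 111.6 to 174.8 in the forestomach, 353.2 to 660.9 in the junction and 5.4 to 21.4 in the corpus. Elovl4, the elongase that makes the very long fatty acids of barrier ceramides, fell from 4464, 4991 and 4280 to 1132, 1756 and 1735 (-1.59 ± 0.19, adjusted p = 0.000259). The ceramidase gene Acer1 (-1.50 ± 0.13) and the acid lipase gene Lipm (-1.69 ± 0.25) fell with it. Elovl7, an elongase, went the other way (1.64 ± 0.09). With forestomach arrays 2 and 3 left out, 9 desquamation genes were called lower.

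Among the 15 largest falls were several genes of squamous epithelium. The serpin gene Serpinb7, whose loss causes a palmoplantar keratoderma in humans, read 1303, 1388 and 1291 in the forestomach and 161.8, 251.0 and 223.0 in the junction (-2.61 ± 0.27, adjusted p = 9.76e-05). Skint10, of a family that acts on gamma delta T cells of the skin, fell from 687.5, 652.6 and 653.5 to 60.3, 85.9 and 100.5 (-2.90 ± 0.16, adjusted p = 2.92e-06) and read 0.9 to 2.3 in the corpus. The acute phase gene Orm1 had the largest fall (-3.13 ± 0.38), from 132.3, 160.3 and 192.6 to 4.7, 4.0 and 26.9. The others were the retinol dehydrogenase gene Rdh9 (-2.70), Kcnip2 (-2.71), Npas4 (-2.77), Rbmxl2 (-2.69), Plcxd1 (-2.62), Rcan2 and Gas1 (both -2.49), the collagen gene Col23a1 (-2.48), the myosin phosphatase inhibitor gene Ppp1r14a (-2.46), and Art3, Klk6 and Sh3bgr (each -2.36). The claudin gene Cldn23 fell by about as much (-2.36 ± 0.24). Orm1 was at -4.12 and -2.2 with the smaller and larger pseudocount, Kcnip2 at -3.35 without junction array 1, and the call of Plcxd1 was lost with a pseudocount of 1 (-0.83, adjusted p = 0.207).

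The junction arrays differed among themselves in squamous signal. Over the 43 cornification genes the median junction signal was 45.1%, 59.2% and 70.1% of the forestomach mean on arrays 1, 2 and 3, and over the 29 lipid barrier genes 40.5%, 53.9% and 57%. For the 24 basal genes the medians were 86%, 101% and 104%. Brightness also went with the calls. Of the 22 genes of the squamous lists with a mean signal over 5000, 7 fell and 0 rose, with a median junction signal of 70.6% of the forestomach, and of the 121 with a lower mean 70 fell and 18 rose (59%), a split chosen after the values were seen. The part of saturation in the bright genes was not tested.

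**Figure D4:**
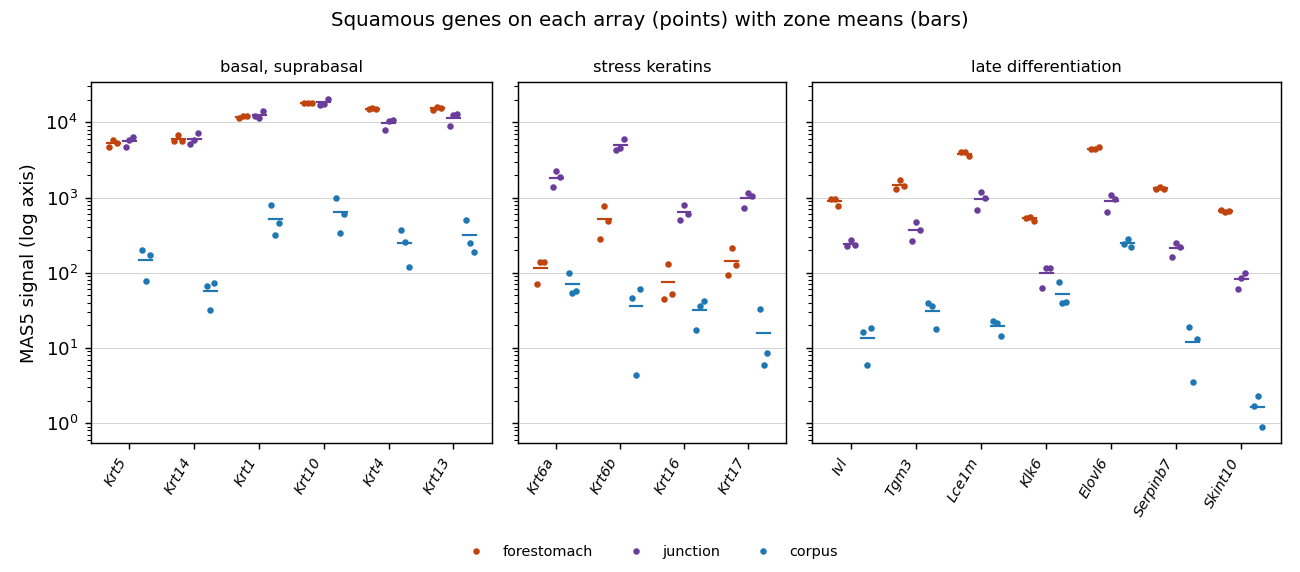
Signal of squamous genes on each of the 9 arrays on a log axis, with 1 point per array, grouped by zone, and a bar at each zone's arithmetic mean of 3 arrays. Forestomach and junction overlap for Krt5, Krt14, Krt1 and Krt10, the junction stands above both neighbours for the stress keratins, and it lies below the forestomach for the late genes.

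Regulators of squamous fate fell more often than they rose. Of 25 squamous transcription factors 18 fell and 3 rose (median -0.89). Prdm1, a repressor needed for terminal differentiation, read 653.1, 750.4 and 702.4 in the forestomach and 191.9, 298.2 and 269.3 in the junction (-1.46 ± 0.16, adjusted p = 0.000172). The nuclear receptor gene Rora fell from 1044, 841.9 and 1173 to 286.6, 391.1 and 421.5 (-1.46 ± 0.17), and Hopx, a homeodomain protein of differentiating keratinocytes, from 9972 to 11082 down to 3906 to 5719 (-1.09 ± 0.20). Ovol2, a zinc finger factor that keeps cells epithelial, rose from 44.6, 13.7 and 40.7 to 168.2, 153.3 and 123.3 (1.97 ± 0.29, adjusted p = 0.000714). Hopx lost the call with forestomach arrays 2 and 3 left out (adjusted p = 0.0556), where 11 of the list were called lower.

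Cell adhesion genes moved in both directions. Among 12 desmosome genes 3 rose and 4 fell. Of the desmocollin and desmoglein genes of stratified epithelium Dsc1, Dsg1b and Dsc3 fell and Dsg1a did not pass (-0.51, adjusted p = 0.204). Dsc1 fell from 7176, 7101 and 6945 to 2188, 2791 and 3890 (-1.30 ± 0.26, adjusted p = 0.00399) and Dsg1b from 879.5 to 1066 down to 305.9 to 504.5 (-1.23 ± 0.18). Their counterparts in simple epithelium rose, Dsg2 from 207.0, 390.1 and 313.9 to 3083, 2764 and 3066 (3.29 ± 0.21, adjusted p = 6.48e-06) and Dsc2 from 165.3 to 302.0 up to 1449 to 1662 (2.68 ± 0.21). Of 26 tight and gap junction genes 12 rose and 10 fell (median 0.04), and 3 of the 26 had no forestomach array above the filter level. The connexin genes Gjb5 and Gjb6, of skin, had differences of -2.28 ± 0.17 and -1.40 ± 0.20, and Gjb1, of secretory epithelium, one of 3.87 ± 0.11. Without series 1, 5 genes of the latter list were called lower. Dsc3 lost its call with averaged probe sets (adjusted p = 0.0551) and with forestomach array 1 alone (0.0645), and Dsc1 lost its call with forestomach arrays 2 and 3 left out (adjusted p = 0.0609).

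Some mucosal defence and transport genes were brighter on all junction arrays than on any array of either neighbour, a grouping made after the values were seen. Of the 2927 genes called higher, 296 had all junction arrays above the 6 other arrays. The reverse was no rarer, as 375 of the 3152 genes called lower had all junction arrays below the 6 others. The share over all genes tested was not counted. Of the 1094 called at least 2-fold higher, 1073 also had a corpus mean above the forestomach mean. For 951 of the 953 called at least 2-fold lower, the corpus mean was below the forestomach mean. Clca1 read 0.5, 14.5 and 3.1 in the forestomach, 1328, 1396 and 1475 in the junction and 458.4, 165.5 and 465.8 in the corpus (6.57 ± 0.42 above the forestomach, adjusted p = 7.28e-06). The polymeric immunoglobulin receptor gene Pigr, which carries IgA across epithelium, read 17.1, 37.2 and 20.2 in the forestomach, 1612, 1315 and 1793 in the junction and 131.6 to 600.9 in the corpus (5.55 ± 0.46, adjusted p = 3.24e-05). Lactoferrin (Ltf), an iron-binding defence protein of glands and neutrophils, rose from 5.5, 81.0 and 74.5 to 1093, 1641 and 1678 (4.89 ± 0.66, adjusted p = 0.000468) and read 44.2 to 141.7 in the corpus. The membrane mucin gene Muc4 rose from 12.8, 26.3 and 18.4 to 443.8, 606.0 and 496.3 (4.20 ± 0.20, adjusted p = 1.54e-06), against 80.1 to 111.5 in the corpus. Dmbt1, a mucosal scavenger protein, read 1.8, 100.7 and 57.5 against 2184, 2068 and 2646, and 386.3 to 820.5 in the corpus (5.70 ± 0.72).

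Several channel genes likewise stood highest in the junction. Claudin 2 (Cldn2), which forms cation pores, read 3.2, 24.9 and 29.3 in the forestomach, 312.7, 407.4 and 585.6 in the junction and 3.0 to 46.9 in the corpus (4.05 ± 0.60, adjusted p = 0.00075). Claudin 7 (Cldn7) and the water channel gene Aqp5 had differences of 3.09 ± 0.28 and 4.03 ± 0.23, with corpus signals of 25.4 to 54.5 and 92.2 to 120.0 below junction signals of 201.1 to 218.0 and 280.2 to 346.1. The chloride channel gene Cftr, chosen after its values were seen, read 12.0, 25 and 18.1 against 178.5, 218.6 and 253.4, and 16.6 to 36.5 in the corpus (3.02 ± 0.24). Gastrokine 3 (Gkn3), of mucous cells and likewise chosen after its values were seen, read 50.9 to 408.8, 5842 to 7933 and 1553 to 3441 in forestomach, junction and corpus (5.27 ± 0.63). Of 31 genes of epithelial defence in all, 16 rose and 6 fell (median 0.98), and the falls included the hydrogen peroxide producing oxidase gene Duox1 (-1.20 ± 0.17) and Bpifc (-1.90 ± 0.28). Without forestomach array 1 Ltf, Dmbt1 and Gkn3 were at 4.05, 4.73 and 4.49, and with it alone at 6.57, 7.63 and 6.84. Without array 2 Dmbt1 and Gkn3 were at 6.36 and 5.88. The smaller and larger pseudocounts put Clca1 at 8.26 and 5.29, Cldn2 at 4.83 and 3.22, Cldn7 at 3.69 and 2.35 and Aqp5 at 4.96 and 3.05, and the larger one put Pigr at 4.85, Muc4 at 3.45 and Cftr at 2.33.

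Smooth muscle and other deep layer genes were lower in the junction. Of 24 smooth muscle genes 23 fell and 1 rose (median -1.46). The actin-binding gene Synpo2 read 2805, 2588 and 3195 in the forestomach and 601.2, 541.1 and 577.3 in the junction (-2.30 ± 0.15, adjusted p = 7.02e-06), and desmin (Des), the muscle intermediate filament, 3759, 4865 and 4483 against 1004, 1255 and 797.4 (-2.11 ± 0.26, adjusted p = 0.000273). Smoc1, a matrix protein, was the one that rose (2.33 ± 0.24). The corpus arrays of Synpo2 and Des, at 408.9 to 584.4 and 696.6 to 1299, reached the range of the junction arrays. Fibroblast and matrix genes fell in 24 of 38 and rose in 1 (median -0.63). Collagen I (Col1a1) fell from 2604, 3654 and 2014 to 1099, 1468 and 1122 (-1.13 ± 0.21, adjusted p = 0.00235), and collagen XIV (Col14a1) by 1.75 ± 0.18 on the log2 scale.

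Most nerve genes fell too. Nerve and glia genes fell in 19 of 25 and rose in 2 (median -0.87), and 2 of the 25 had no junction array above the filter level. Substance P precursor (Tac1) read 1032, 1051 and 965.8 in the forestomach and 304.5, 272.0 and 130.5 in the junction (-2.15 ± 0.27, adjusted p = 0.000339), and the glial cadherin gene Cdh19 280.7, 189.0 and 298.9 against 44.8, 47.1 and 66.7 (-2.08 ± 0.19). Of 11 mesothelium genes 6 fell and 1 rose (median -1.34), the latter Krt19, a keratin that gland epithelium also makes. Uroplakin 3b (Upk3b), of the outer lining of the stomach, fell from 224.1, 311.7 and 247.8 to 57.1, 52.1 and 45.4 (-2.14 ± 0.14). Gas1, a membrane protein of mesenchyme, and the calcineurin regulator gene Rcan2 were among the largest falls (-2.49 ± 0.16 and -2.49 ± 0.12), and Gas1 was at -1.22 as the mean of its probe sets. With forestomach arrays 2 and 3 left out, 15 fibroblast genes were called lower.

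Striated muscle and fat genes differed between arrays of a zone. Skeletal actin (Acta1) read 84.5, 134.0 and 1403 in the forestomach and 1120, 63.0 and 62.0 in the junction, so 1 array of each zone stood apart, and of 14 striated muscle genes 2 fell and 0 rose. Adiponectin (Adipoq), of fat cells, read 73.6, 13.7 and 492.7 in the forestomach and 9.2 to 34.5 in the junction (-1.85 ± 1.09, adjusted p = 0.201), and was called lower without forestomach array 2 (-2.89, adjusted p = 0.0493). Fat cell genes had no common direction, as 4 of 12 rose and 3 fell (median -0.57). The rises were Lpl (2.08), Acvr1c (1.73), Cidec (1.67) and Pparg (1.09), and the falls Cidea (-1.75), Plin4 (-1.59) and Fabp4 (-0.87). No forestomach array was above the filter level for 2 of the 12. Without junction array 1, 5 striated muscle genes were called lower.

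Most Hox genes tested, which give cells their place along the body axis, fell in the junction. Of 16 Hox genes 12 fell and 0 rose (median -0.98). Hoxc8 read 2005, 1759 and 1722 in the forestomach, 407.9, 514.5 and 692.1 in the junction and 6.2 to 18.6 in the corpus (-1.78 ± 0.24, adjusted p = 0.000483). Hoxc5 fell from 1191, 1094 and 1154 to 328.2, 454.5 and 471.5 (-1.45 ± 0.15, adjusted p = 0.000115), with 23.9 to 32.4 in the corpus. Hoxb3 fell from 330.8, 217.3 and 263.7 to 106.3, 83.7 and 70.0 (-1.54 ± 0.19), where the corpus read 69.8 to 92.1. Hoxa7 had the largest fall of the list (-2.31 ± 0.11), from 75.7 to 86.3 down to 7.2 to 10, under the filter level on all junction arrays, and was at -3.12 and -1.50 with the smaller and larger pseudocount.

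Hedgehog genes moved in both directions. In this pathway a secreted ligand relieves the inhibition of Smo, with co-receptors on the receiving cell, and Gli factors act in the nucleus. The ligand gene Shh read 20.8, 69.2 and 65.4 in the forestomach and 1682, 1520 and 1630 in the junction (4.84 ± 0.31, adjusted p = 7.77e-06), and Ihh 29.0, 45.0 and 34.9 against 236.1, 218.2 and 160.3 (2.22 ± 0.17, adjusted p = 2.32e-05). Of the genes known as targets, Hhip and Gli1 rose from 7.1 to 34.6 up to 78.8 to 120.4 (1.85 ± 0.32) and from 26.7 to 37.9 up to 64.4 to 93.3 (1.15 ± 0.23, adjusted p = 0.00378). The co-receptor genes Gas1, Cdon and Boc fell by 2.49 ± 0.16, 1.51 ± 0.16 and 0.81 ± 0.16 on the log2 scale, the transducer Smo by 0.79 ± 0.11, and the factors Gli2 and Gli3 by 0.79 ± 0.16 and 0.67 ± 0.16. The mesenchymal factor gene Foxf1, also a target, fell from 480.8 to 519.6 down to 223.6 to 385.3 (-0.80 ± 0.18). The receptor and target gene Ptch1 read 597.9, 396.3 and 491.8 against 478.4, 437.7 and 413.2, and was not shown to differ (adjusted p = 0.474). Over the 15 genes tested, 4 rose and 8 fell (median -0.65). Gli1 lost the call without series 1 or 2 (adjusted p = 0.0507 and 0.0582) and Gli3 without series 1 (0.0667). Boc and Gli2 lost it with forestomach array 1 alone (0.0737 and 0.0568). With forestomach arrays 2 and 3 left out, 3 of the list were called lower, and Shh was at 5.73. Shh was at 3.33 when its probe sets were averaged.

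Other signalling lists moved in both directions, several with a share called near the 44.6% of all genes tested. The share was 48.8% for Wnt, 54.8% for BMP and TGF-beta and 50% for Notch genes. It was 56.2% for EGF family genes and 46.9% for FGF, IGF, PDGF and VEGF genes. Wnt genes rose in 7 of 43 and fell in 14 (median -0.18). The Wnt amplifier gene Rspo3 fell from 1598, 1096 and 1615 to 429.3, 369.4 and 338.7 (-1.88 ± 0.18, adjusted p = 7.49e-05) and the ligand gene Wnt4 from 1625 to 1695 down to 529.8 to 741.5 (-1.38 ± 0.14). The noncanonical ligand gene Wnt5a rose from 130.7, 127.6 and 120.7 to 293.8, 353.1 and 296.6 (1.25 ± 0.11, adjusted p = 4.22e-05), and its corpus signal was 144.6 to 177.3. Of 31 BMP and TGF-beta genes 10 rose and 7 fell (median 0.08), among them the ligand genes Bmp2 (1.62 ± 0.22) and Bmp5 (1.97 ± 0.14) and the antagonist gene Fst (-1.41 ± 0.24). The activin subunit gene Inhbb rose from 15.9, 38.4 and 18.8 to 163.8, 167.2 and 208.7 (2.52 ± 0.22) and read 93.2 to 100.1 in the corpus, with 1.30 as the mean of its probe sets. Of 20 Notch genes 2 rose and 8 fell, of 16 EGF family genes 3 and 6, and of 32 FGF, IGF, PDGF and VEGF genes 5 and 10. The EGF receptor gene Egfr fell by 1.01 ± 0.12 on the log2 scale, the squamous growth factor gene Ereg by 1.18 ± 0.18 and the lymphatic growth factor gene Vegfd by 2.03 ± 0.19, and Egf rose from 102.5, 107.7 and 126.2 to 590.5, 484.7 and 291.3 (1.88 ± 0.27). Without series 2 the EGF family had 2 members called lower.

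Retinoid genes moved both ways. Of 19 genes 6 rose and 5 fell (median -0.07). The retinol transporter gene Stra6 read 4.9, 3.8 and 4.1 in the forestomach, 47.5, 31.1 and 45.0 in the junction and 5.6 to 17.1 in the corpus (1.84 ± 0.20), and the retinoic acid synthase gene Aldh1a3 58.8 to 92.0, 149.8 to 290.7 and 100.3 to 170.2 (1.36 ± 0.27, adjusted p = 0.00358). The binding protein gene Crabp2 fell from 1937, 1908 and 1980 to 733.2, 1038 and 1164 (-1.01 ± 0.16), and Rdh12 by 1.58 ± 0.22 on the log2 scale. Stra6 was at 2.98 and 1.03 with the smaller and larger pseudocount, and 3 of the list were called lower without series 1 or 3.

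Mast cell proteases went in opposite directions. Mcpt1 and Mcpt2 are chymases of mucosal mast cells, which lie in epithelium, whereas Mcpt4 marks connective tissue mast cells. Mcpt2 read 6.0, 4.9 and 20.2 in the forestomach and 696.3, 717.7 and 630.9 in the junction (5.18 ± 0.28, adjusted p = 2.92e-06), and Mcpt1 5.4, 3.2 and 8.4 against 310.1, 325.6 and 246.0 (4.30 ± 0.34, adjusted p = 2.30e-05). Mcpt4 fell from 167.7, 224.3 and 201.2 to 30.7, 42.2 and 33.9 (-2.19 ± 0.38, adjusted p = 0.00185). Of the other mast cell genes, the histamine synthesis gene Hdc (3.19), the IgE receptor subunit gene Ms4a2 (1.38) and the prostaglandin synthase gene Hpgds (1.09) rose. Hdc is on the enteroendocrine list as well, so its rise cannot be assigned to mast cells. It was at 4.14 and 2.24 with the smaller and larger pseudocount. Not passing were Fcer1a, Gata2, carboxypeptidase A3 (Cpa3), at 437.1 to 465.4 and 465.9 to 515.6 (0.11 ± 0.12, adjusted p = 0.498), and Cma1, at 177.3 to 259.1 and 173.3 to 191.4 (-0.32 ± 0.17, adjusted p = 0.165). Cma1 was called lower without forestomach array 2 (-0.49, adjusted p = 0.0333) or series 2 (-0.53, adjusted p = 0.0352). The tryptase genes Tpsb2 and Tpsab1 rose (0.97 ± 0.16 and 1.31 ± 0.14), and of 13 genes in all 7 rose and 2 fell. The receptor gene Kit, which the pacemaker cells of gut muscle also carry, was the other fall (-0.58 ± 0.13), lost with the mean of its probe sets (adjusted p = 0.293) without series 3 (0.0751) and with forestomach array 1 alone (0.095). Mcpt4 lost the call with forestomach arrays 2 and 3 left out (adjusted p = 0.0529), and the other pseudocounts put Mcpt1 at 5.53 and 3.14 and Mcpt2 at 6.15 and 4.13.

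The stretches before the starts of Mcpt1 and Mcpt4 are shown because these related genes of 1 cluster differed in direction. They are 150 bases upstream of the RefSeq start in GRCm38.p6, chr14:56017814-56017963 on the plus strand and chr14:56062311-56062460 on the minus strand, 5′ to 3′, with TATAAA in capitals.
Mcpt1: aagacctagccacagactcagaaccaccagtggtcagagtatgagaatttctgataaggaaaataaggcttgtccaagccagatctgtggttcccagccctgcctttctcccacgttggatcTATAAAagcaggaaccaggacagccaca
Mcpt4: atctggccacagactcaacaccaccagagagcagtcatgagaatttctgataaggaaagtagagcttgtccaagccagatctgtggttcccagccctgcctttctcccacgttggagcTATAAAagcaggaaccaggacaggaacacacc
The box began 28 bases before the start of Mcpt1 and 32 before that of Mcpt4. The 2 stretches were 22 single-base changes, insertions or deletions apart, against 86 for Pgc and Ivl. Cross-binding of RNA between Mcpt1 and Mcpt4 probe sets was not tested, as no transcript or probe sequences were compared. The level of each is thus uncertain.

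**Figure D5:**
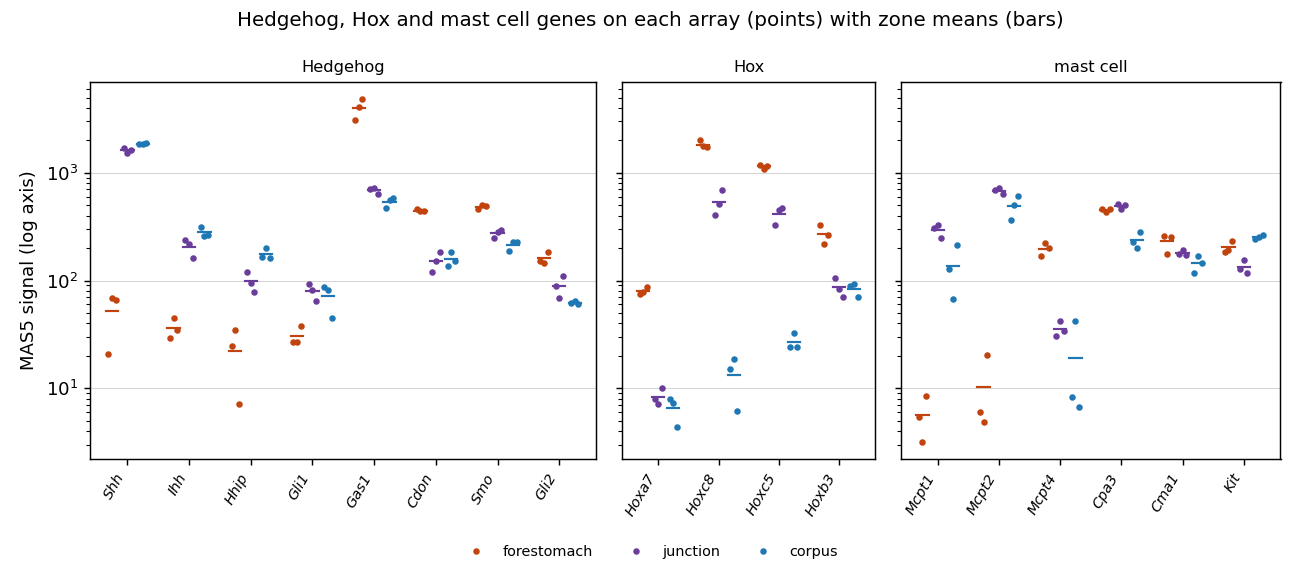
Signal of Hedgehog, Hox and mast cell genes on each of the 9 arrays on a log axis, with 1 point per array, grouped by zone, and a bar at each zone's arithmetic mean of 3 arrays. Shh and Ihh stand higher and Gas1, Cdon, Smo and Gli2 lower in the junction than in the forestomach, and Mcpt1 and Mcpt4 differ in opposite directions.

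Other immune lists moved in both directions. Against 44.6% of all genes tested, 32% of macrophage, monocyte and dendritic cell genes and 23.1% of lymphocyte and plasma cell genes were called. The shares were 50% for neutrophil and eosinophil, 66.7% for chemokine and cytokine and 46.4% for interferon response genes. Of 25 macrophage, monocyte and dendritic cell genes 4 rose and 4 fell (median 0.03). Chil3, a chitinase-like lectin, rose from 78.1, 26.8 and 52.4 to 629.0, 221.5 and 568.4 (2.91 ± 0.41, adjusted p = 0.00061) and read 20.7 to 24.8 in the corpus. Chil3 was at 2.32 with forestomach array 1 alone. Retnla, made by alternatively activated macrophages and by fat, fell from 2505, 2224 and 1343 to 681.9, 456.3 and 396.5 (-1.95 ± 0.28). Among 10 neutrophil and eosinophil genes 4 rose and 1 fell, and the eosinophil lectin gene Siglecf read 16.5, 25.3 and 10.5 in the forestomach, 132.1, 133.1 and 216.0 in the junction and 35.9 to 57.6 in the corpus (2.64 ± 0.25, adjusted p = 7.01e-05), with 1.97 at the larger pseudocount. The immunoglobulin A heavy chain gene Igha rose from 454.1, 294.6 and 256.5 to 2974, 1723 and 2627 (2.83 ± 0.27). Lymphocyte and plasma cell genes rose in 2 of 13 and fell in 1. Chemokine and cytokine genes rose in 8 of 30 and fell in 12. The mucosal chemokine gene Cxcl17 (5.01 ± 0.48) was the largest rise and the keratinocyte interleukin 36 antagonist gene Il1f5 (-1.69 ± 0.30), at 6949 to 7284 against 1627 to 2700, the largest fall. Interferon response genes rose in 11 of 28 and fell in 2 (median 0.26), with Oasl1 at 32.2 to 52.7 against 542.1 to 635.6 (3.47 ± 0.16). That list had 6 members called higher without series 1 or 3 and 6 called lower with series as a block, and Cxcl17 was at 4.33 without forestomach array 1 and 6.38 with it alone.

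Mitochondrial genes were higher in the junction by a small amount. Of 57 genes of oxidative phosphorylation 54 rose and 0 fell, with a median of 0.56. The succinate dehydrogenase subunit gene Sdhd read 660.5, 693.3 and 730.4 in the forestomach, 2360, 2111 and 1865 in the junction and 3028 to 3111 in the corpus (1.58 ± 0.10, adjusted p = 7.77e-06). It was at 0.87 when its probe sets were averaged, and without series 1 the list had 29 members called higher. The ATP synthase subunit gene Atp5g1 rose from 988, 1059 and 1201 to 2742, 2381 and 2486 (1.22 ± 0.11, adjusted p = 4.03e-05). Genes of the TCA cycle and fatty acid oxidation rose in 20 of 36 and fell in 3 (median 0.33), and those of protein folding and secretion in the endoplasmic reticulum rose in 29 of 41 and fell in 1 (median 0.60).

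Lipid synthesis genes fell more often than they rose. Of 31 genes of cholesterol and fatty acid synthesis 15 fell and 2 rose (median -0.33). The elongase gene Elovl6 fell from 4411, 4394 and 4647 to 639.3, 1078 and 970.5 (-2.34 ± 0.19, adjusted p = 2.42e-05), and the sterol reductase gene Tm7sf2 by 1.23 ± 0.11 on the log2 scale. Of 46 genes of cytochrome P450 and conjugation 18 rose and 19 fell, and 2 had no forestomach array and 2 no junction array above the filter level. The epoxygenase gene Cyp2c65 rose from 69.8, 170.6 and 210.0 to 3447, 3483 and 3015 (4.50 ± 0.32, adjusted p = 1.28e-05, and 5.38 with forestomach array 1 alone) and the sulfotransferase gene Sult1d1 from 83.8 to 150.1 up to 1855 to 1984 (3.89 ± 0.18). The carboxylesterase gene Ces1d fell from 2379, 1694 and 2263 to 502.9, 479.3 and 572.0 (-2.0 ± 0.26), and the monooxygenase gene Fmo2 by 1.78 ± 0.17 on the log2 scale. Ribosomal protein genes rose in 0 of 26 and fell in 2 (median -0.10). With forestomach arrays 2 and 3 left out, 9 lipid synthesis genes were called lower.

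Few stress response genes were called. Of 29 immediate early and heat shock genes 2 rose and 7 fell (median -0.17). The phosphatase gene Dusp1 read 3088, 1916 and 2054 in the forestomach and 1083, 1052 and 933.8 in the junction (-1.16 ± 0.18, adjusted p = 0.00082), and the heat shock gene Hspa1a 2854, 2099 and 1983 against 779.5, 683.6 and 879.6 (-1.54 ± 0.23, adjusted p = 0.000752). Fos went the other way, at 1074, 311.8 and 338.9 against 1478, 1463 and 1204 (1.48 ± 0.40, adjusted p = 0.0156), with forestomach array 1 apart from the others. Its call was lost in 5 of the alternatives, with adjusted p values up to 0.152.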

How the data were processed

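RNA of 9 pools was hybridised to Affymetrix mouse 430 2.0 arrays as biotin-labelled cRNA made from 5 µg of total RNA, per the labels. The deposited values are intensity signals, which the submitters' processing notes attribute to MAS5 as run by the authors, with version and settings not given in the sources used here. Dim signals are noisy and the brightest may be saturated. Kept were probe sets whose signal passed the 40th percentile of the array (29.0 to 36.5) on at least 3 of 9 arrays, so a gene could pass through the zone where it was bright. The brightest kept probe set by mean stood for its gene. Of 6462 genes with several, 104 called genes had another called the opposite way. Gene symbols came from the platform annotation, updated through Entrez IDs to GRCm38.p6 for 34741 of 34945 probe sets.

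limma 3.58.1 in R 4.3.3 was fitted to log2(signal + 9.8) over all 9 arrays with 1 mean per zone, with two-sided moderated tests and Benjamini-Hochberg adjustment over 13637 genes. Such folds understate changes of dim genes. The fit was also run on simulated data with independent noise and few planted changes. That run does not show how the fit behaves with shared pools of mice. Same-series arrays share mice, which pairs them; same-series deviations of forestomach and junction correlated at -0.029 to 0.099, and the block was an alternative. Alternatives changed the pseudocount (1, 30.9), filter, normalization, probe set rule, limma options and arrays used. Named genes are the 15 largest called differences each way, up to 4 per list each way, members of lists of at most 20, defining markers and reference genes. Members and lists were chosen with earlier results of these data known. Figures were drawn with Python and matplotlib.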

Additional observations from a re-analysis of the deposited data

How the results depend on the processing

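Of the 6079 genes called, 2927 higher and 3152 lower, a 2-fold minimum left 2047, 1094 and 953. Testing all 24870 probe sets called 9739, 4712 and 5027. With forestomach replicates 2 and 3 left out together 3805 genes were called, 1788 of them lower, with the lone array assumed to vary like the other groups. Leaving out 1 array or 1 series called 3946 (without series 1) to 5979 genes, 1985 to 2853 higher and 1961 to 3126 lower. With the series as a replicate block, which the shared pools of mice allow, 6046 genes were called. Of 480 named genes, 359 were called and 255 of these lost the call in no setting. When the probe sets of each gene were averaged, the direction of Lipe (0.76, adjusted p = 0.000396), Mbp (-0.43, adjusted p = 0.00221), Rxra (0.39, adjusted p = 0.0234), Sufu (0.13, adjusted p = 0.546) and Tgfa (0.11, adjusted p = 0.515) was turned, and the cause was not tested. Signals under the filter level, on forestomach arrays for gland genes above all, carry little information on the size of a fold.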
